A study of Homo sapiens with 12 samples.

Results

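CD52 is the subject here, 1 of 11963 genes measured on these arrays, read by its probe sets 204661_at and 34210_at. It was chosen by its measured change, the largest rise with CHD4 shRNA in both cell lines, so that rise is described and not tested. The study used 12 expression arrays of total RNA from U937 and MV4-11, established human acute myeloid leukaemia lines grown in RPMI medium. Each line carried a lentiviral GFP vector, pRRL.H1.shRNA, with either a scrambled shRNA or an shRNA whose target the sample labels spell CDH4 and the series text CHD4. This gave 4 groups of 3 arrays: U937 scrambled, U937 CHD4 shRNA, MV4-11 scrambled and MV4-11 CHD4 shRNA. All groups share the vector and GFP, and whether GFP-positive cells were sorted, how long the hairpins acted and how many of them were used is stated in no label.

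CD52 is a very short glycoprotein held on the cell surface by a glycosylphosphatidylinositol (GPI) anchor and covered with sialic acid-bearing sugar. It is known from lymphocytes, monocytes, eosinophils, dendritic cells and the epididymis, and it is the antigen of the antibody alemtuzumab, which lyses cells through complement and Fc receptors. Cleaved CD52 binds the sialic acid receptor SIGLEC10 and signals through the phosphatase PTPN6, with HMGB1 as a partner. CHD4 is the motor subunit of NuRD, a chromatin complex that repositions nucleosomes and removes acetyl groups from histones.

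The 250 bases before the start of CD52 are shown because CHD4 acts on chromatin, together with those of SH3BGRL3, the only one of its 10 nearest measured neighbours past the test in both lines. Both come from RefSeq (GRCh38.p14, plus strand), from chr1:26317708-26317957 for CD52 and chr1:26279836-26280085 for SH3BGRL3, 5′ to 3′, with each CpG in capitals.
CD52: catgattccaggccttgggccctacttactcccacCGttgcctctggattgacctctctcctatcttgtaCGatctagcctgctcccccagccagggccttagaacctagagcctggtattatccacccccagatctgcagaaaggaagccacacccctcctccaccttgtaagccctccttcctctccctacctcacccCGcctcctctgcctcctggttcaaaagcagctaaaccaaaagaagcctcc
SH3BGRL3: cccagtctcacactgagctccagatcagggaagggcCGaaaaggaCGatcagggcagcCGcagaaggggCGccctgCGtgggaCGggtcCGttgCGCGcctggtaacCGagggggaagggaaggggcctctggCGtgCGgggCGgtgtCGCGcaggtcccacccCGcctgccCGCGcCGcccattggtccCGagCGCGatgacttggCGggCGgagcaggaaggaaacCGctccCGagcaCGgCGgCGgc
The CD52 stretch held 3 CpG and was 56.4% G and C, and 29.3% of 35116 RefSeq promoter stretches of this length held no more CpG, with a median of 11. The SH3BGRL3 stretch held 29 CpG, and 87.6% of stretches held no more. The genes thus started from stretches of low and of high CpG content. A search of the CD52 stretch on both strands found GAGGAA once, 70 bases before the start, a motif that 23.6% of all stretches hold. TATAAA (in 10.7% of stretches), GGGCGG (42.6%), TGTGGT (11.0%) and TTGCNNAA (9.05%) were not among its letters. The motifs and the SH3BGRL3 stretch were chosen after the values were seen, and a match is a description, not a site.

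CHD4 itself, the check of the labels, read 10.31, 10.38 and 10.71 in U937 scrambled replicates 1, 2 and 3 and 8.23, 8.13 and 8.45 with its shRNA, as log2 RMA values (RMA being the method that turned probe brightness into 1 value per probe set). In MV4-11 it read 10.65, 10.69 and 10.68 with the scrambled shRNA and 8.79, 8.85 and 8.39 with CHD4 shRNA. Every shRNA array lay below every scrambled array of its line. The scrambled arrays of the lines were close to each other: their mean levels correlated at r = 0.99 across the 11963 genes, which are not independent, and 176 genes were over 2-fold apart. FLT3, the receptor kinase that is mutated in MV4-11, read 6.64 ± 0.19 in U937 and 9.99 ± 0.70 in MV4-11 scrambled arrays (SD, n = 3). What underlies the likeness of the lines was not tested. The p-values below reflect the spread between these arrays.

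In U937, CD52 rose with CHD4 shRNA to well above the array medians, which lay between 6.97 and 7.02. Probe set 34210_at of this lymphocyte and monocyte antigen was below them in the scrambled arrays, and read 5.80, 5.89 and 5.11 in scrambled replicates 1, 2 and 3, and 9.38, 9.79 and 10.78 in the CHD4 shRNA replicates. All shRNA arrays lay above all scrambled arrays, with 3.49 between the highest scrambled and the lowest shRNA value. The log2 means were 5.60 ± 0.43 and 9.98 ± 0.72 (SD, n = 3), a rise of 4.38 (limma SE 0.32, 95% interval 3.69 to 5.08) or 20.9-fold. Bulk RNA cannot tell more cells with CD52 from more CD52 RNA per cell.

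Probe set 204661_at gave the same order of groups with a smaller rise. In U937 it read 6.67, 7.04 and 5.84 with the scrambled shRNA and 8.76, 9.33 and 9.86 with CHD4 shRNA. The groups were again apart, by 1.72 at the closest. Its log2 means were 6.52 ± 0.61 and 9.32 ± 0.55 (SD, n = 3), a rise of 2.80 (SE 0.30, 95% interval 2.15 to 3.45) or 6.96-fold.

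In MV4-11, CD52 rose by at least as much in the measured values. Probe set 34210_at read 6.27, 6.99 and 6.78 in the scrambled arrays and 11.69, 11.38 and 11.02 in the CHD4 shRNA arrays. Its log2 means were 6.68 ± 0.37 and 11.36 ± 0.34 (SD, n = 3), a rise of 4.68 (SE 0.32, 95% interval 3.99 to 5.38) or 25.7-fold. The closest arrays of the groups were 4.03 apart.

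Probe set 204661_at read 6.52, 7.01 and 6.54 in the MV4-11 scrambled arrays and 10.44, 10.25 and 9.90 with CHD4 shRNA. No scrambled array came within 2.89 of a CHD4 shRNA array. The log2 means were 6.69 ± 0.28 and 10.20 ± 0.27 (SD, n = 3), a rise of 3.51 (SE 0.30, 95% interval 2.85 to 4.16) or 11.4-fold.

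**Figure D1:**
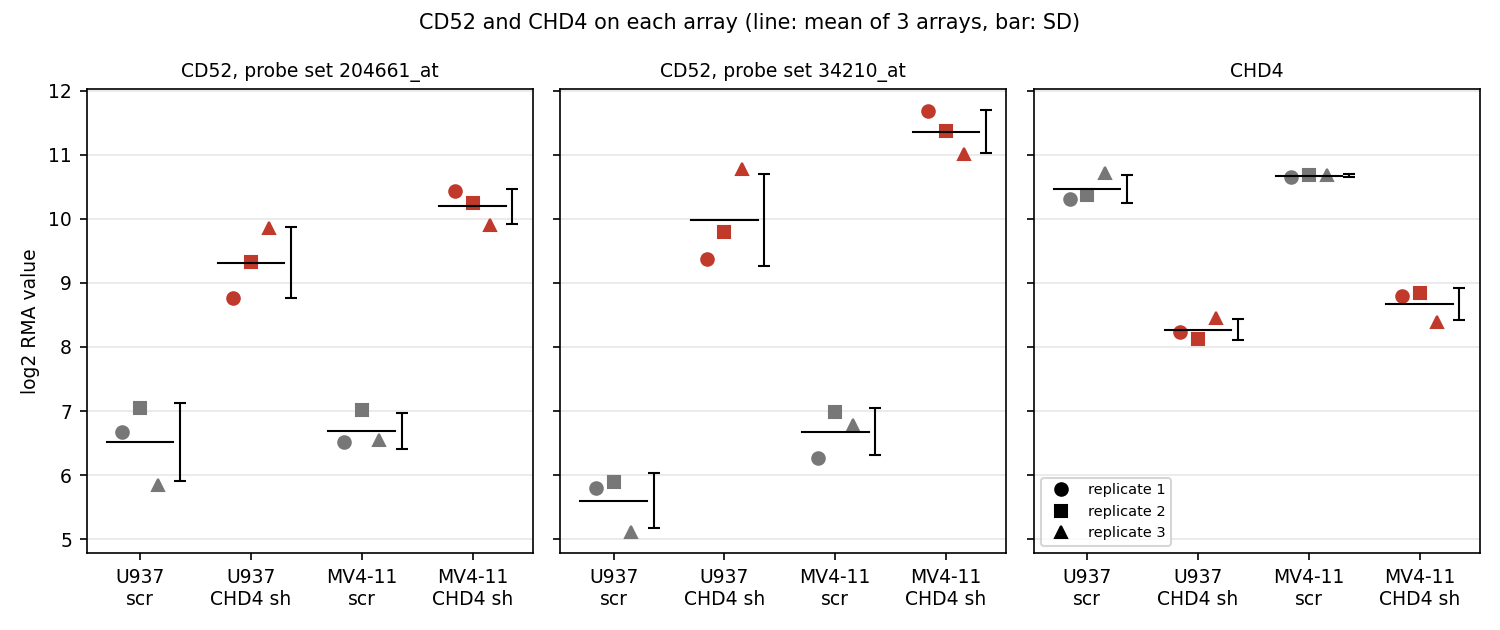
Log2 RMA values (vertical axis) of both CD52 probe sets and of CHD4 on each of the 12 arrays, by group (scr, scrambled; sh, shRNA); horizontal lines are means of 3 arrays, bars their SD, and the marker shape gives the replicate number. CD52 is 8.76 or higher in the CHD4 shRNA arrays and 7.04 or lower in the scrambled arrays, while CHD4 goes the other way.

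The probe sets moved together from array to array but not by the same amount. Over the 12 arrays their values correlated at r = 0.99, and their deviations from the group means at r = 0.91, values that come from the same 12 RNA samples. The rise seen by 34210_at exceeded that of 204661_at by a log2 of 1.58 in U937 and 1.18 in MV4-11, so their folds differed by 3.00 and 2.26 times. Over the 4310 genes with several probe sets, the median difference between probe sets was 0.10 in either line, and the 95th percentile 0.39 in U937 and 0.50 in MV4-11. Among genes picked for having a probe set above 1, a choice that by itself widens the difference, the median was 0.63 over 28 genes in U937 and 0.73 over 63 in MV4-11. Both probe sets were above 1 for 7 of the 28 and 19 of the 63. The measured size of the CD52 rise therefore depended on the probe set, and which of them is nearer the RNA was not tested. Both may understate it, because background remains in the signal of dim genes.

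CD52 also varied more within groups than most genes. Its residual SD over the 4 groups was 0.46 for 204661_at and 0.49 for 34210_at, against a median of 0.15 over 22215 probe sets, of which 1.39% and 1.01% had a larger one. In U937, replicate 3 lay at the far end of both groups: for 34210_at it was 0.49 below the scrambled mean and 0.80 above the CHD4 shRNA mean. Arrays of 1 number thus gave different rises, of 3.58, 3.90 and 5.67 in U937 replicates 1, 2 and 3 and of 5.42, 4.39 and 4.24 in MV4-11. For 204661_at they were 2.09, 2.29 and 4.02 in U937 and 3.92, 3.24 and 3.36 in MV4-11. The fall of CHD4 between the same arrays ran over a narrower range, with differences of -2.08, -2.25 and -2.26 in U937 and -1.86, -1.84 and -2.29 in MV4-11. Among the 3 CHD4 shRNA arrays of each line, replicate 3 was highest for both CHD4 and CD52 in U937 and lowest for both in MV4-11.

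Against the other genes, CD52 stood at the far edge in both lines, which is why it was chosen. Changes of all 11963 genes had an SD of 0.28 in U937 and 0.34 in MV4-11, and 93.6% and 90.6% of them were within 0.5 of 0. Only 1 gene rose by a log2 above 4 in either line, CD52. With 34210_at it ranked 1 in both lines, and with 204661_at it would rank 4 in U937 and 2 in MV4-11. The next genes in U937 were the antimicrobial S100A7 at 3.24, the testis gene TSKS and the muscle protein CSRP3, both at 2.89 (1.67 for TSKS as the mean of its probe sets), and the scavenger receptor CD36 at 2.48. In MV4-11 they were the receptor GPR18 at 3.77, the interferon-induced IFI27 at 3.21, the adhesion molecule CEACAM6 at 3.16 and the granule protein CHGB at 2.60. The IFI27 rise was 2.05 without MV4-11 CHD4 shRNA replicate 2, and its adjusted p of 0.010 became 0.082 with only the groups compared. IFI27 changed by 0.01 in U937, and S100A7 was the runner-up over both lines, with 2.58 as its smaller change.

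The gap between the groups of arrays was ranked in the same way. For 34210_at the smallest gap ranked 1 in both lines, before S100A7 (2.83) in U937 and CEACAM6 (2.21) in MV4-11, and for 204661_at it ranked 5 in U937 and 1 in MV4-11. Every CHD4 shRNA array lay above every scrambled array for 12.2% of genes in U937 and 11.5% in MV4-11, but by over 1 for only 22 and 36 genes. Compared number by number, 34210_at ranked 1 in 5 of 6 pairs of arrays and 6 in MV4-11 replicate 2. By 204661_at the ranks were 5, 6 and 4 in U937 replicates 1, 2 and 3 and 1, 17 and 1 in MV4-11.

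**Figure D2:**
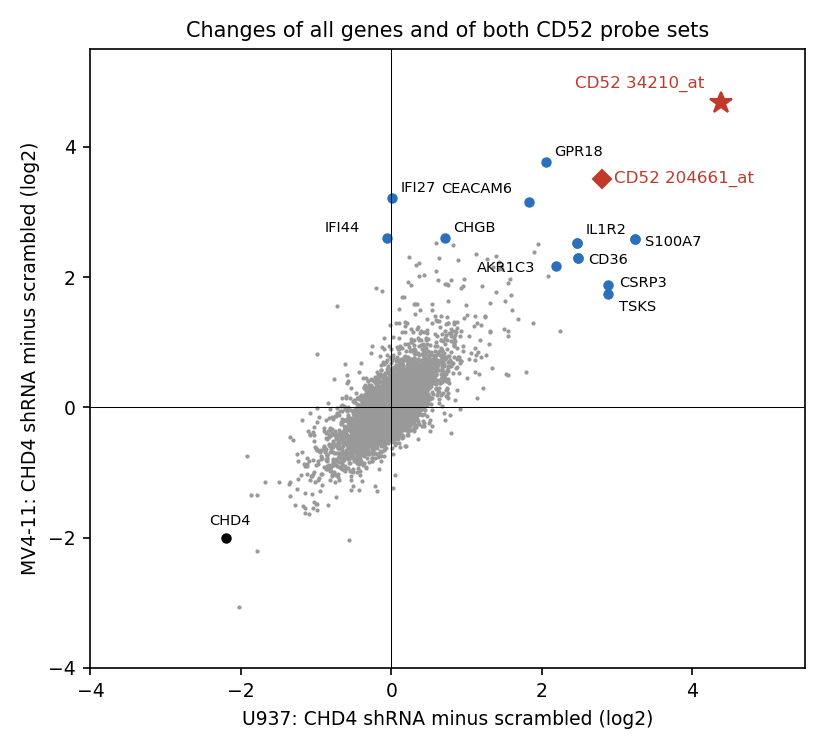
Log2 change with CHD4 shRNA in U937 (horizontal) and MV4-11 (vertical) for 11963 genes, each a grey dot; blue dots are the largest rises, black is CHD4, the red star CD52 by 34210_at and the red diamond CD52 by 204661_at. The star, at 4.38 and 4.68, lies beyond every other gene on both axes, and the diamond, at 2.80 and 3.51, lies among the next largest rises.

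The levels of CD52 in the lines were compared with each hairpin, a contrast that the choice of the gene did not use although it shares arrays with it. With the scrambled shRNA, 34210_at was higher in MV4-11 by a log2 of 1.08 (SE 0.32, 95% interval 0.38 to 1.78), and 204661_at by 0.17 (SE 0.30, 95% interval -0.48 to 0.83). Neither passed the threshold of a limma adjusted p under 0.05 over 22215 probe sets (adjusted p = 0.082 and 0.80), a threshold that 4.45% of probe sets passed. The 34210_at difference did pass without U937 CHD4 shRNA replicate 3 (adjusted p = 0.026), with only the groups compared (0.022) and with array weights (0.031). The groups did not overlap for 34210_at, with 5.89 as the highest U937 and 6.27 as the lowest MV4-11 value, and did overlap for 204661_at.

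With CHD4 shRNA, 34210_at was higher in MV4-11 than in U937 by 1.38 (SE 0.32, 95% interval 0.68 to 2.08, 2.60-fold), with a limma adjusted p of 0.027 in a contrast where 5.55% of probe sets passed. Without U937 CHD4 shRNA replicate 1 or 2 the adjusted p became 0.11, without MV4-11 CHD4 shRNA replicate 1 it became 0.10, and without MV4-11 CHD4 shRNA replicate 2 it became 0.067. For 204661_at the difference was 0.88 (SE 0.30, 95% interval 0.23 to 1.53, limma adjusted p = 0.11), and 0.041 without U937 CHD4 shRNA replicate 3. From low to high both probe sets thus gave U937 scrambled, MV4-11 scrambled, U937 CHD4 shRNA and MV4-11 CHD4 shRNA, with the first neighbours not apart by the test and the last apart by 34210_at only. The rise in MV4-11 minus the rise in U937 was 0.30 (SE 0.46, 95% interval -0.69 to 1.29) by 34210_at and 0.71 (SE 0.43, 95% interval -0.22 to 1.63) by 204661_at, given as a description.

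Genes whose pattern over the 12 arrays was most like CD52 were ranked by Pearson r with the mean of its probe sets. They were chosen for that pattern, so their changes are descriptions, and groups of arrays make up most of each r. IL1R2, the decoy receptor for interleukin-1, was most like it at r = 0.987. It read 4.90, 4.66 and 4.14 in U937 scrambled arrays, 6.80, 6.88 and 7.44 in U937 CHD4 shRNA arrays, 4.86, 4.96 and 4.86 in MV4-11 scrambled arrays and 7.95, 7.35 and 6.97 in MV4-11 CHD4 shRNA arrays. Its deviations from the group means correlated with those of CD52 at r = 0.82, which the choice favours, since it used the same arrays. U937 replicate 3 was its lowest scrambled and its highest CHD4 shRNA array.

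The next were the ubiquitin ligase SMURF1 (r = 0.980), the p53 target RPS27L (0.977), the kinase PRKCZ (0.973), the signalling adaptor THEMIS2 (0.971), CYRIA, a regulator of actin (0.970), the deubiquitinase USP11 (0.970), the lymphocyte adhesion receptor CD2 (0.969), the Fc receptor subunit FCER1G (0.968) and the ATP synthase subunit ATP5F1E (0.967). Their shapes were alike but their sizes were not: in U937 the changes ran from 0.39 for ATP5F1E to 2.47 for IL1R2, and in MV4-11 from 0.52 to 2.53. Deviations within groups, which also enter the r used for the choice, correlated with those of CD52 at r = 0.82 for FCER1G, 0.80 for USP11 and 0.24 for PRKCZ. Other probe sets of SMURF1 had r of 0.615 and 0.808, while those of IL1R2, THEMIS2 and CYRIA had 0.942, 0.958 and 0.960. Among 11962 genes, 105 had r above 0.9 and 173 below -0.9, so the order among these names is fine-grained. By Spearman's rho, 0 of the 10 names were the same.

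The genes least like CD52 fell where it rose. PLGRKT, a plasminogen receptor (r = -0.984), changed by -1.03 in U937 and -0.99 in MV4-11. BST1, an ectoenzyme with a GPI anchor like that of CD52 (r = -0.980), read 8.49, 8.55 and 8.54 in U937 scrambled arrays and 7.73, 7.47 and 7.22 with CHD4 shRNA, and 8.45, 8.05 and 8.20 against 7.25, 7.16 and 7.13 in MV4-11. The others were the integrin ITGA6 (-0.979), the homeobox gene HOXC10 (-0.978) and the matrix protein TNN (-0.971).

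**Figure D3:**
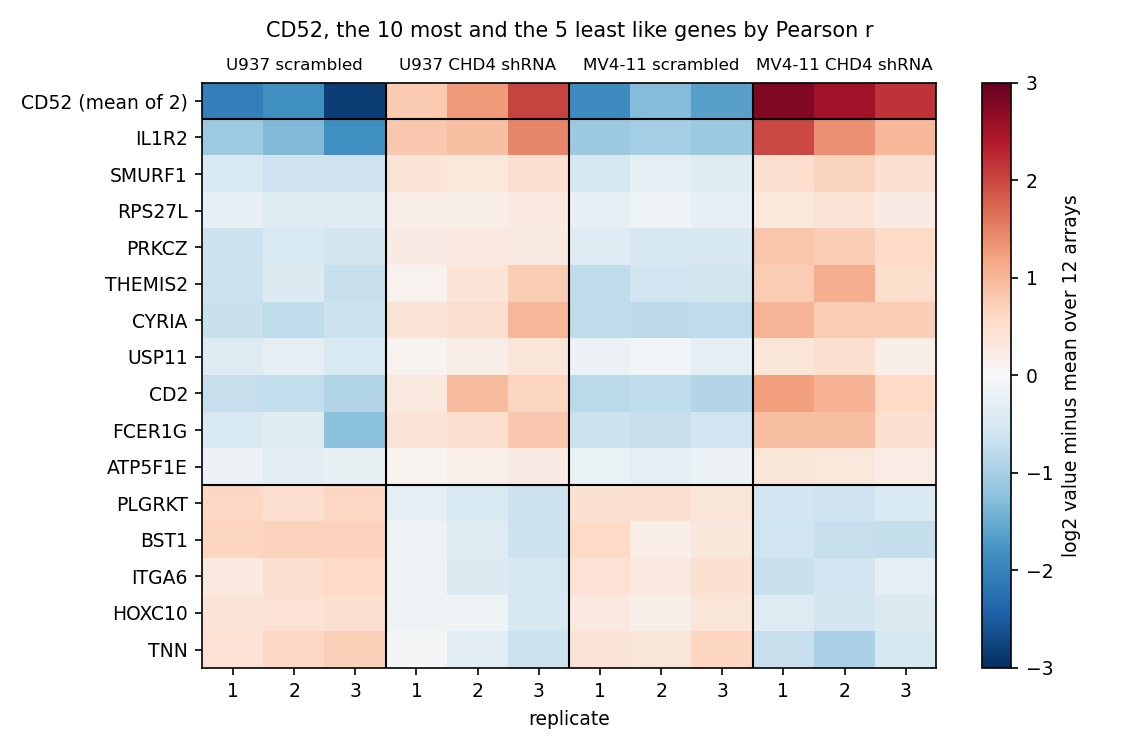
Log2 value minus the mean over 12 arrays (colour) for the mean of the CD52 probe sets, the 10 genes with the highest and the 5 with the lowest Pearson r with it; columns are arrays by group and replicate. Rows near the top are blue in scrambled and red in CHD4 shRNA arrays, CD52 with the deepest colours, and the bottom 5 rows are the reverse.

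The rise of CD52 was not shared by most of its neighbours on chromosome 1. Of the 5 nearest measured genes on each side, 1 passed the test in U937 and 2 in MV4-11, all of them higher, where 2.67% of all genes rose in U937 and 4.73% in MV4-11. SH3BGRL3, a small thioredoxin-fold protein 2 coding genes before CD52, read 10.03, 10.05 and 9.86 in U937 scrambled arrays and 10.48, 10.72 and 11.14 with CHD4 shRNA. In MV4-11 it read 9.91, 10.12 and 9.54 against 11.16, 11.31 and 10.70. The shRNA arrays lay above the scrambled ones in both lines, by a mean of 0.80 (SE 0.19, limma adjusted p = 0.030) in U937 and 1.20 (SE 0.19, adjusted p = 0.0033) in MV4-11. In U937 the adjusted p became 0.084, 0.073 and 0.11 when scrambled replicate 1, 2 or 3 was left out. It became 0.084 and 0.12 without CHD4 shRNA replicate 2 or 3. The change itself stayed between 0.62 and 0.95 with 1 array left out, so the call lay near the threshold.

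The other neighbours moved little. HMGN2, a nucleosome-binding protein 5 coding genes after CD52, rose by 0.35 in MV4-11 (SE 0.09, limma adjusted p = 0.034), a call lost without U937 scrambled replicate 1, any of the 3 MV4-11 scrambled replicates or MV4-11 CHD4 shRNA replicates 1 and 2 (adjusted p from 0.051 to 0.12). CRYBG2, the coding gene next after CD52, changed by 0.00 and -0.05, CEP85 by 0.00 and 0.17, CNKSR1 by 0.03 and -0.03 and LIN28A by 0.02 and 0.17, in U937 and MV4-11. DHDDS, which makes the dolichol used for sugar transfer, changed by -0.43 in U937 (limma adjusted p = 0.075, or 0.018 with a replicate block) and -0.01 in MV4-11. UBXN11, the coding gene next before CD52, was not analysed here.

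**Figure D4:**
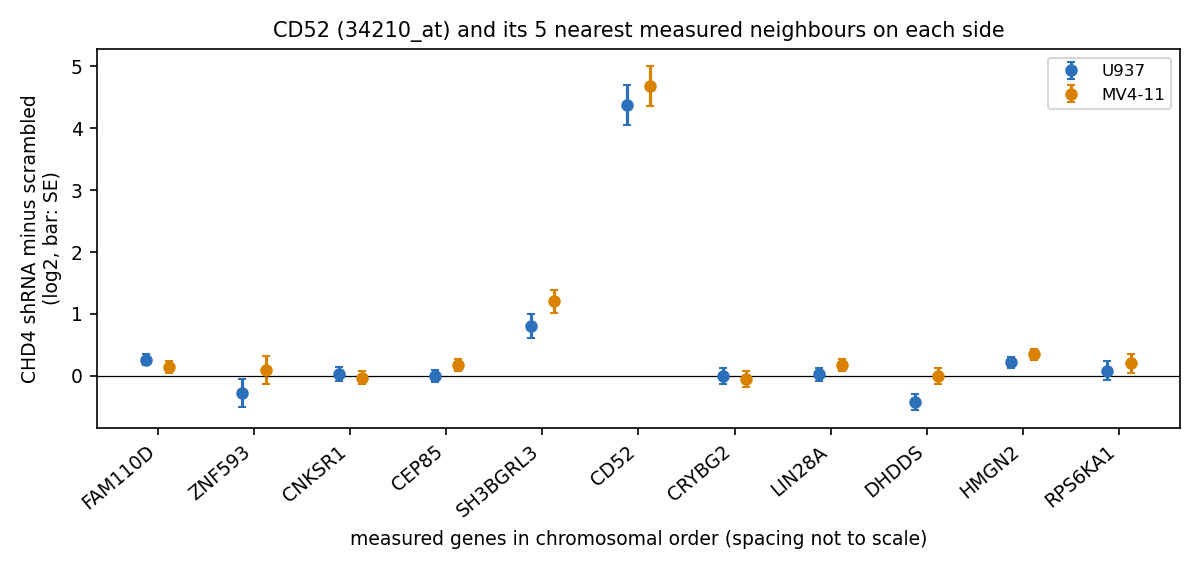
Log2 change with CHD4 shRNA (vertical axis, bars are SE) in U937 and MV4-11 for CD52 by 34210_at and the 5 nearest measured genes on each side, in the order of the RefSeq gene table and not to scale. CD52 stands at 4.38 and 4.68, SH3BGRL3 at 0.80 and 1.20, and the other 9 genes between -0.43 and 0.35.

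Other surface proteins with a GPI anchor did not rise as a group. Of 41 measured members of 44 listed, 3 rose and 2 fell in each line. Of all genes, 2.67% rose and 3.69% fell in U937, and 4.73% and 4.69% in MV4-11. The median change was 0.00 in U937 and 0.01 in MV4-11, beside 0.00 and -0.03 over all genes. CEACAM6 read 5.53, 5.28 and 5.90 in U937 scrambled arrays against 7.07, 7.59 and 7.53 with CHD4 shRNA, and 5.98, 5.13 and 5.21 against 9.17, 8.19 and 8.45 in MV4-11. It rose by 1.83 (SE 0.27, limma adjusted p = 0.0024) and 3.16 (SE 0.27, adjusted p = 5.6e-05), and its second probe set gave 1.81 and 3.25. Of the others, the protease inhibitor RECK rose by 0.90 and 0.74, although its other probe sets changed by 0.13 or less and the mean of its probe sets did not pass in MV4-11 (adjusted p = 0.069), and BST1 fell by 1.05 in both lines. CD14, the complement inhibitors CD55 and CD59 and the prion protein PRNP changed by between -0.30 and 0.11. The ligand EFNA4 rose by 0.55 in U937 and 0.75 in MV4-11, CEACAM8 fell in U937 (-0.46) and CD24 in MV4-11 (-0.77). Of these last calls that of EFNA4 in MV4-11 held with each array left out, and that of EFNA4 in U937 was lost without U937 scrambled replicates 1, 2 or 3, U937 CHD4 shRNA replicates 2 or 3, MV4-11 CHD4 shRNA replicate 1 or MV4-11 scrambled replicate 2 (adjusted p from 0.052 to 0.14). CEACAM8 was lost without any of the 6 U937 arrays or MV4-11 replicate 1 of either group (0.054 to 0.16), and CD24 without MV4-11 replicate 1 of either group, scrambled replicate 3 or CHD4 shRNA replicate 2 (0.076 to 0.10). In MV4-11, other CD24 probe sets gave -0.77 (adjusted p = 0.034) and, without passing, from -0.75 to -0.33 (0.053 to 0.18). Without MV4-11 CHD4 shRNA replicate 3, 5 members rose there.

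Genes that build, attach and trim the GPI anchor were lower where they changed. Of 26 measured members of 33 listed, 0 rose and 4 fell in U937, and 0 rose and 6 fell in MV4-11. Of all genes, 2.67% rose and 3.69% fell in U937, and 4.73% and 4.69% in MV4-11. The list medians were -0.20 and -0.24, beside 0.00 and -0.03 over all genes. At an unadjusted limma p under 0.05 the counts were 0 higher and 10 lower in U937, where 8.28% of all genes were higher and 10.8% lower, and 0 and 9 in MV4-11, where 12% were higher and 12.5% lower. PIGH and PIGP, subunits of the enzyme of the first step, fell in both lines, with changes of -0.45 and -0.47 in U937 (limma adjusted p = 0.025 and 0.019) and of -0.49 and -0.50 in MV4-11 (adjusted p = 0.013 and 0.011). PGAP3, which remodels the lipid of the finished anchor, fell too, with -0.51 and -0.52 (adjusted p = 0.020 and 0.014). Its other probe set gave -0.45 and -0.34 without passing (adjusted p = 0.055 and 0.11). PIGA, the catalytic subunit of the first step, changed by -0.29 and -0.27 (adjusted p = 0.40 and 0.37). PGAP2 fell in U937 (-0.58), and PIGC (-0.58), PIGF (-0.43) and MPPE1 (-0.73) fell in MV4-11. The PIGF call was lost without any scrambled array or CHD4 shRNA replicate 1 or 2 of either line (adjusted p up to 0.16). MPPE1 lost its call without MV4-11 scrambled replicate 2 or 3 or CHD4 shRNA replicate 1 or 2 (0.057 to 0.095). That of PGAP2 was lost without any U937 array, MV4-11 scrambled replicate 3 or CHD4 shRNA replicate 1 (0.053 to 0.17). Other probe sets of PIGF (-0.58, adjusted p = 0.019) and MPPE1 (-0.46 and -0.72, 0.034 and 0.032) passed in MV4-11. PGAP2 in MV4-11 (-0.46) had an adjusted p of 0.082, or 0.014 with a replicate block. The other PGAP2 probe set fell in both lines, by -0.71 in U937 and -0.64 in MV4-11 (adjusted p = 0.012 and 0.015). These are small changes, and their count moved when 1 array was left out. The count of 4 in U937 became 0 without scrambled replicate 1 or CHD4 shRNA replicate 3. It became 1 without replicate 2 of either group, 2 without scrambled replicate 3, and 8 with a replicate block. Calls over all genes in U937 moved too, from 761 to between 306 and 947 with 1 array left out. The count of 6 in MV4-11 became 2 without CHD4 shRNA replicate 1 and 3 without scrambled replicate 2.

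Siglecs, receptors that read sialic acid, were counted together with their inhibitory phosphatases and HMGB1. Of 12 measured members of 17 listed, 0 passed in either direction in U937 (1 higher and 1 lower at an unadjusted limma p under 0.05). In U937 2.67% of all genes rose and 3.69% fell, and 8.28% were higher and 10.8% lower at the unadjusted p. In MV4-11 1 rose and 1 fell, beside 4.73% and 4.69% of all genes. At the unadjusted p 3 were higher and 1 lower there, beside 12% and 12.5% of all genes. The list medians were -0.03 in U937 and -0.02 in MV4-11, beside 0.00 and -0.03 over all genes. In MV4-11 SIGLEC7, an inhibitory receptor, rose by 0.60 (limma adjusted p = 0.021) and SIGLEC6 fell by 0.80 (adjusted p = 0.024). Their other probe sets passed there too. They gave 0.42 and 0.48 for SIGLEC7 (adjusted p = 0.036 and 0.039) and -0.54 and -0.69 for SIGLEC6 (0.024 and 0.0030). PTPN6, the phosphatase bound by inhibitory Siglecs, changed by 0.13 and 0.01, and HMGB1 by -0.12 and -0.04. In U937 SIGLEC6 changed by -0.66 (adjusted p = 0.070), its other probe sets by -0.49 and -0.70 (adjusted p = 0.050 and 0.0031), and it passed as the mean of its probe sets (0.016), with a replicate block (0.035) and without MV4-11 CHD4 shRNA replicate 2 (0.048). SIGLEC10 was not analysed here. SIGLEC7 lost its call without MV4-11 CHD4 shRNA replicate 1 or 2 or scrambled replicate 3, and SIGLEC6 without scrambled replicate 1 or 3 or CHD4 shRNA replicate 2 (adjusted p from 0.071 to 0.089). The count of rises in MV4-11 was 2 without U937 scrambled replicate 2 or 3, and 3 without MV4-11 CHD4 shRNA replicate 3 or with a replicate block.

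Of 17 measured genes of 25 listed that make, move or remove sialic acid, 0 passed in U937 (0 higher and 2 lower at an unadjusted limma p under 0.05). In MV4-11 2 rose and 1 fell, where 4.73% of all genes rose and 4.69% fell. At the unadjusted p 4 were higher and 2 lower there, beside 12% and 12.5% of all genes. In U937 2.67% of all genes rose and 3.69% fell, and 8.28% were higher and 10.8% lower at the unadjusted p. The list medians were 0.00 in U937 and 0.03 in MV4-11, beside 0.00 and -0.03 over all genes. The sialyltransferase ST6GAL1 fell by 0.71 (limma adjusted p = 0.0051), the sialidase NEU1 rose by 0.76 (adjusted p = 0.015) and ST3GAL6 rose by 0.59 (adjusted p = 0.045). Other probe sets of ST6GAL1 read -0.17 and -0.32, and those of ST3GAL6 between -0.08 and 0.68. The call of ST6GAL1 held with each array left out. That of NEU1 was lost without MV4-11 CHD4 shRNA replicate 1 or scrambled replicates 2 or 3 (adjusted p from 0.052 to 0.074), and that of ST3GAL6 without any 1 of 9 arrays, with an adjusted p of up to 0.17. In U937 the count of falls became 1 without MV4-11 scrambled replicate 1 or 3 or CHD4 shRNA replicate 2, and 2 without CHD4 shRNA replicate 3, which also made 2 fall in MV4-11, as did a replicate block.

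Other surface antigens of leukaemia and lymphoma antibodies were counted in the same way. Of 32 measured members of 39 listed, 2 rose and 1 fell in U937, where 2.67% of all genes rose and 3.69% fell. In MV4-11 4 rose and 2 fell, where 4.73% and 4.69% of all genes did, and the median was 0.04 in both lines. CD2 read 5.41, 5.36 and 5.19 in U937 scrambled arrays against 6.38, 7.05 and 6.74 with CHD4 shRNA, and 5.28, 5.33 and 5.22 against 7.32, 7.14 and 6.68 in MV4-11. Its groups did not overlap, and it rose by 1.40 (SE 0.17, limma adjusted p = 0.00070) and 1.77 (SE 0.17, adjusted p = 0.00014). CD79B, a subunit of the B-cell receptor, rose by 0.60 and 1.34 (adjusted p = 0.035 and 0.00036), and the chemokine receptor CXCR4 fell (-0.94 and -1.02, adjusted p = 0.00061 and 0.00028). In MV4-11 the receptor kinase KIT rose by 0.72, the costimulator CD86 by 0.59, and CD47, which restrains phagocytes, fell by 0.66. The targets CD38, IL3RA and FLT3 changed by 0.36, 0.05 and 0.15 in U937 and by 0.22, 0.14 and 0.06 in MV4-11, without passing. The U937 call of CD79B was lost without any scrambled replicate or CHD4 shRNA replicate 2 or 3 (adjusted p from 0.053 to 0.13). That of CD47 was lost without MV4-11 scrambled replicate 1 or 3 or CHD4 shRNA replicate 1 or 2 (0.070 to 0.11). CD47 was past the threshold in U937 without MV4-11 CHD4 shRNA replicate 3 (0.035) and with a replicate block (0.015). Its other probe sets changed by -0.66 (adjusted p = 0.010), -0.08 and -0.54 in U937 and by -0.57 (0.016), -0.06 and -1.36 in MV4-11.

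Complement regulators and receptors, which bear on the lysis of a cell bound by such an antibody, changed in part. Of 19 measured members of 23 listed, 2 rose and 0 fell in U937, and 3 rose and 1 fell in MV4-11. Of all genes, 2.67% rose and 3.69% fell in U937, and 4.73% and 4.69% in MV4-11. The list medians were 0.08 and 0.06, beside 0.00 and -0.03 over all genes. At an unadjusted limma p under 0.05, 4 were higher and 1 lower in U937 and 7 higher and 1 lower in MV4-11, beside 8.28%, 10.8%, 12% and 12.5% of all genes. The membrane inhibitors CD46, CD55 and CD59 changed by 0.03, -0.01 and -0.07 in U937 and by 0.06, -0.30 and -0.02 in MV4-11. The receptor integrin subunit ITGAM rose by 1.41 in MV4-11 (limma adjusted p = 0.0020), although another probe set read -0.11, the inhibitor clusterin (CLU) rose by 0.77 and the receptor C3AR1 by 0.92, and the receptor CR1 fell (-1.27, adjusted p = 0.0030), with -0.17, -0.37 and -0.67 from other probe sets. In U937 the integrin subunits ITGAX and ITGB2 rose by 0.57 and 0.34 (adjusted p = 0.031 and 0.049). The call of ITGB2 was lost without any of 10 arrays (adjusted p up to 0.18) and that of ITGAX without U937 CHD4 shRNA replicates 1, 2 or 3 or scrambled replicate 3 (0.056 to 0.13). In MV4-11, C3AR1 was lost without any of 11 arrays (up to 0.15). A replicate block gave 7 rises in MV4-11, ITGAX (adjusted p = 0.025) and ITGB2 (0.039) among them.

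The rise of CD52 was set beside markers of the cell types that carry it. For these marker counts, 2.67% of all genes rose and 3.69% fell in U937, and 4.73% and 4.69% in MV4-11. At an unadjusted limma p under 0.05, 8.28% of all genes were higher and 10.8% lower in U937, and 12% and 12.5% in MV4-11. Of 14 T-cell markers, 1 rose in each line, CD2, while the T-cell receptor chains CD3D, CD3E, CD3G and CD247 changed by between -0.17 and 0.14. The mean log2 value over these markers ran from 5.58 to 5.79 in U937 scrambled and 5.77 to 5.89 in U937 CHD4 shRNA arrays, and from 5.54 to 5.62 and 5.67 to 5.77 in MV4-11. Without CD2, left out after its rise was seen, the ranges overlapped in both lines, at 5.61 to 5.82 and 5.71 to 5.80 in U937 and 5.56 to 5.65 and 5.56 to 5.70 in MV4-11. Among 16 myeloid markers 2 rose in U937 and 3 in MV4-11. They were CD36 and FCER1G in both lines and ITGAM in MV4-11, while the neutrophil elastase ELANE fell in both (-0.82 and -0.69) and cathepsin G (CTSG) in MV4-11 (-0.74). The mean log2 value over the 16 markers ran from 9.16 to 9.52 in U937 scrambled and 9.45 to 9.60 in U937 CHD4 shRNA arrays. In MV4-11 it ran from 8.89 to 8.99 and from 9.04 to 9.32, without overlap. The call of CD36 was lost without scrambled replicate 1 or 3 in U937 (adjusted p = 0.051 and 0.057) and without scrambled replicate 1 or 3 or CHD4 shRNA replicate 1 or 2 in MV4-11 (0.053 to 0.074), and its other probe sets changed by 2.34 and 0.35 in U937 and by 1.94 and 0.16 in MV4-11. That of ELANE was lost without scrambled replicate 1 or 2 in U937 (0.069 and 0.068) and without the same 4 arrays as CD36 in MV4-11 (0.072 to 0.091), and that of CTSG without scrambled replicate 3 or CHD4 shRNA replicate 1 or 2 (0.074 to 0.084). CD14 and the colony-stimulating factor receptor CSF1R, which rise in mature monocytes, changed by 0.11 and 0.09 in U937 and by 0.06 and -0.15 in MV4-11.

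Of 10 B-cell markers CD79B rose in both lines, while BLNK fell in both (-1.78 and -2.20) and PAX5 in U937 (-0.90, with 0.01 from its other probe set). In U937 BLNK lost its call without any scrambled replicate or CHD4 shRNA replicate 2 or 3 (adjusted p from 0.062 to 0.11). The mean log2 value over the B-cell markers ran from 5.94 to 6.03 in U937 scrambled and lower, from 5.75 to 5.87, in U937 CHD4 shRNA arrays. In MV4-11 it ran from 5.73 to 5.87 and from 5.55 to 5.73. Of 10 NK-cell markers PRF1 rose in MV4-11 by 0.68, a call lost without MV4-11 CHD4 shRNA replicate 1 (adjusted p = 0.057). The mean over the NK-cell markers ran from 6.50 to 6.62 in U937 scrambled and 6.69 to 6.81 in U937 CHD4 shRNA arrays, without overlap. In MV4-11 it ran from 6.45 to 6.57 and from 6.54 to 6.61. Of 8 eosinophil markers RNASE2 rose in MV4-11 by 0.72, while PRG2 changed by 2.22 and CLC by 1.79 without passing (limma adjusted p = 0.058 and 0.18). The mean log2 value over the eosinophil markers ran from 6.35 to 6.62 in MV4-11 scrambled and 6.61 to 7.71 in MV4-11 CHD4 shRNA arrays. Of 11 dendritic cell markers 0 passed in either line by limma, and 0 at an unadjusted p under 0.05. Of 9 markers of the epididymis WFDC2 rose by 0.34 and SPINT2 fell by 0.42 in U937, calls lost without any of 10 and 9 arrays (adjusted p up to 0.16 and 0.20), and 0 passed in MV4-11 (0 higher and 1 lower at an unadjusted limma p under 0.05). The part of any of these in the CD52 rise was not tested.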

How the data were processed

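The authors deposited 1 table of log2 RMA values with 2 decimals for the 12 arrays, with RMA named in the submitters' processing notes. Whether all arrays were processed together is not given in the sources used here. RMA normalizes arrays to 1 distribution, so a shift shared by most genes would not show, and folds of dim genes are understated because background remains in their signal. Of 22215 probe sets that are not controls, 19064 had 1 gene symbol, 1043 several and 2108 none. Of several probe sets of 1 gene, the brightest by its mean stood for it. Differences were fitted with limma 3.58.1 in R 4.3.3 (lmFit with the 4 groups over 12 arrays, eBayes), tested on simulated data. Benjamini-Hochberg adjustment was over 22215 probe sets for the CD52 line contrasts and for other probe sets of a gene. It was over 11963 genes otherwise, and the threshold was 0.05. Every adjusted p comes from these limma fits, or from the limma fit of the alternative named beside it.

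CD52, its gene lists and the alternatives were chosen with earlier results of these data known. Names follow a rule: CD52, CHD4, the largest rises, up to 4 called members of each list and line, defining cell type markers, the 5 nearest neighbours on each side, and the 10 genes most and 5 least like CD52. Members named without a call were chosen after their values were seen. Replicate numbers come from the titles. Deviations of same-numbered arrays correlated at 0.46, 0.48 and 0.49 in MV4-11 and at 0.00, 0.35 and 0.34 in U937 replicates 1, 2 and 3. Arrays of different numbers correlated at -0.36 to -0.05 in MV4-11 and at -0.41 to 0.17 in U937. The numbers thus pair the arrays in MV4-11 and in U937 replicates 2 and 3, while U937 replicate 1 showed no such pairing. Calls are from the fit without a replicate block. Blocked values given beside results are from a block within each line, and not all changed calls are given there. That block also brought CD24 (adjusted p = 0.018), PIGC (0.035), MPPE1 (0.012) and CR1 (0.0086) past the threshold in U937, and PAX5 (0.041) in MV4-11. A block shared by both lines lost EFNA4 (0.053), CEACAM8 (0.072), ITGB2 (0.067), WFDC2 (0.06) and SPINT2 (0.077) in U937, and HMGN2 (0.051) and ST3GAL6 (0.074) in MV4-11. The number of arrays limits the precision.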

Additional observations from a re-analysis of the deposited data

How the results depend on the processing

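Both CD52 rises kept their direction and size in 20 alternatives: 3.99 to 4.68 in U937 and 4.48 to 4.92 in MV4-11 by 34210_at, and 2.46 to 3.08 and 3.38 to 3.67 by 204661_at. Of 140 changes of other named genes, 89 kept their call in every alternative, and 15 turned sign in some alternative, of which 0 were called. Genes called numbered 761 in U937 and 1127 in MV4-11, or 250 and 376 at an adjusted p under 0.01, 106 and 191 at 2-fold or more, 1474 and 2351 with a replicate block within each line, and 1397 and 4366 with array weights, which did not converge. With only the groups compared, 513 were called in MV4-11. Leaving out 1 array gave 306 to 947 and 422 to 1964. Between the lines, the 34210_at difference of 1.08 with scrambled shRNA passed with only the groups compared (adjusted p = 0.022), without U937 CHD4 shRNA replicate 3 (0.026) and, at 1.01, with array weights (0.031), and ran from 0.84 to 1.28 with 1 array left out. That of 1.38 with CHD4 shRNA did not pass with only the groups compared (0.085) and ran from 1.08 to 1.78. The 204661_at differences ran from -0.16 (without U937 scrambled replicate 3) to 0.44 and from 0.60 to 1.15, and the second was 1.25 with array weights (0.0012). The difference of the 34210_at rises became 0.88 with array weights. A replicate block shared by both lines changed no CD52 call between the lines (34210_at adjusted p = 0.11 with scrambled and 0.043 with CHD4 shRNA). The block within each line was not fitted for these contrasts. The cause of these moves was not tested, beyond fewer arrays or a stricter threshold.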
